A study of Mus musculus with 6 samples.

Results

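The transcripts described are those of the 10 enzymes and helpers that hydroxylate, fold and trim procollagen: P4ha1, P4ha2, P4ha3, P4hb, Plod1, Plod2, Plod3, Serpinh1, Pcolce and Bmp1. They were taken by gene symbol from a deposited table of 33682 rows, in which each symbol occurred on 1 row, and all 10 are among the 12341 genes that passed a filter on low values. The members share roles in procollagen processing, and they were chosen with earlier results of these data known. RNA sequencing was performed on 6 cultures labelled as neonatal rat cardiomyocytes, while the design text of the study speaks of a fibroblast culture. Of these, 3 were kept in medium conditioned by ALOX5-/- mast cells (Alox5KO medium) and 3 in medium conditioned by wild-type mast cells (WT medium). The mast cells, bone marrow-derived in both groups (BMMCs), had been treated with TNF-a in both. The product of Alox5, 5-lipoxygenase, catalyses the first step of leukotriene formation, and the study asks which programs mast cell leukotrienes drive in fibroblasts. All 6 sequenced cultures are labelled as wild type themselves, so the groups differ in the donor of the medium. Age beyond the label neonatal, medium dose and exposure time are not given in the sources used here. Whether replicates were separate cultures is not stated in the labels. The p-values therefore measure the spread among these 6 samples only, and that spread may be technical.

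Procollagen chains are modified while they enter the endoplasmic reticulum. Prolyl 4-hydroxylase, built of alpha subunits (P4ha1, P4ha2 or P4ha3) and the beta subunit P4hb, makes the hydroxyproline that keeps the triple helix stable at body temperature. The lysyl hydroxylases Plod1, Plod2 and Plod3 make the hydroxylysine used for sugar attachment and crosslinks. Both enzyme groups need oxygen, iron, ascorbate and 2-oxoglutarate. Serpinh1 (HSP47) holds the folded helix until it leaves for the Golgi. Outside the cell Bmp1 cuts off the C-propeptide, a step that Pcolce speeds up, and the trimmed molecules assemble into fibrils. In heart fibroblasts this line of enzymes serves the type I and type III collagen that makes up most of a scar.

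In cells given Alox5KO medium, transcripts of the C-propeptidase Bmp1, the beta subunit P4hb, the alpha subunit P4ha2 and the lysyl hydroxylase Plod2 were lower than in cells given WT medium. Relative to WT medium, the mean level of Bmp1 fell by 52.4%, that of P4hb fell by 41.05%, that of P4ha2 fell by 35.8% and that of Plod2 fell by 24.4%. The test called 4 of the 10 genes lower and 0 higher (limma on log2(FPKM + 1), Benjamini-Hochberg adjusted p under 0.05 over all 12341 genes). Over all genes tested it called 20.7% in either direction, with 1238 genes higher and 1313, or 10.6%, lower. At an unadjusted p under 0.05, 6 of the 10 were lower and 1, P4ha3, was higher, and limma voom on reads worked back from the values called 4 lower and 1, P4ha3, higher. The groups did not overlap for 7 of the 10, with 6 lower and 1 higher in Alox5KO medium, against 37.6% of all genes tested in either direction and 18.8% in each. The median log2 fold change of the 10 was -0.29, against -0.00082 for all genes tested.

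**Figure D1:**
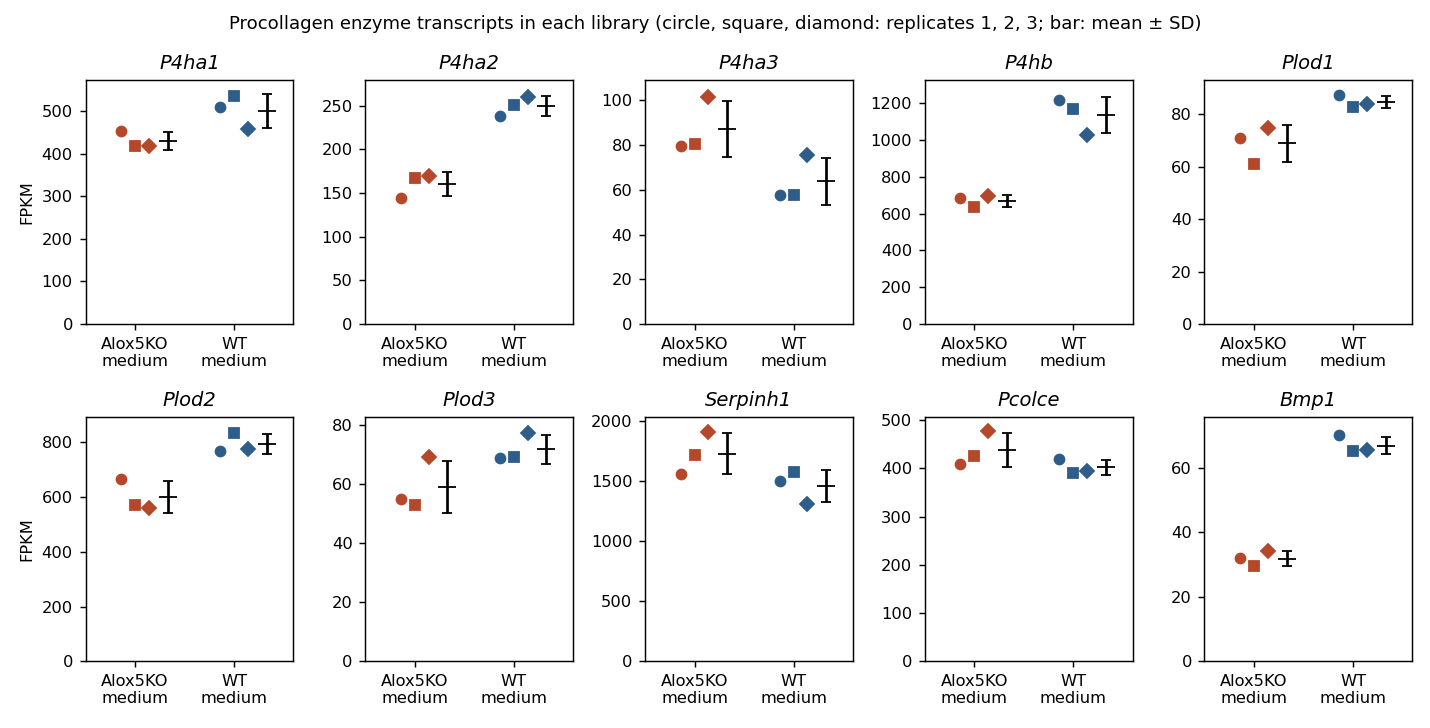
Level of each of the 10 transcripts in FPKM (vertical axes from 0) in the 3 Alox5KO-medium libraries (left, red) and the 3 WT-medium libraries (right, blue), with the mean ± SD of each group in black. Bmp1, P4hb, P4ha2 and Plod2 show a clear step between the groups, while Serpinh1, Pcolce and Plod3 overlap.

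FPKM scales fragments to gene length and to the depth of the library. Levels of different genes can thus be set side by side as far as their reads were counted equally well, which was not tested. Every member was well covered, with between 1264 and 60479 reads per library. Together the 10 took 1.01% to 1.06% of the reads of the Alox5KO-medium libraries and 1.13% to 1.23% of those of the WT-medium libraries. Serpinh1 stood first in both groups, at a mean of 1731 FPKM in Alox5KO medium and 1464 FPKM in WT medium. P4hb and Plod2 came next in both, and their ranges overlapped in Alox5KO medium but not in WT medium. Pcolce and P4ha1 followed, overlapping in Alox5KO medium (409.7 to 477 and 417 to 454 FPKM), whereas P4ha1 was above Pcolce in every WT-medium library. P4ha2 stood sixth in both groups. The lowest places changed hands: P4ha3 was seventh in Alox5KO medium and last in WT medium, and Bmp1 was last in Alox5KO medium. In WT medium the levels of Plod3, Bmp1 and P4ha3 overlapped, so their order there is not resolved.

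P4hb encodes protein disulfide isomerase, which serves as the beta subunit of prolyl 4-hydroxylase and also works alone as a folding enzyme. Its level was 683, 634 and 694 FPKM in the Alox5KO-medium libraries and 1216, 1167 and 1028 FPKM in the WT-medium libraries. The lowest WT-medium library lay 334 FPKM above the highest Alox5KO-medium library. The log2 fold change was -0.76 (SE 0.11; limma, Benjamini-Hochberg adjusted p = 0.0013). The gene (ENSRNOG00000036689) lies on the minus strand of chromosome 10, from 109736458 to 109747987. Coordinates are those of the deposited table, and the sources used here do not name its rat genome build.

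P4ha2 encodes the alpha subunit of the second prolyl 4-hydroxylase isoenzyme. It had 144, 168 and 169 FPKM in Alox5KO medium, against 238, 251 and 260 FPKM in WT medium, and the groups did not overlap. The log2 fold change was -0.64 (SE 0.10; limma, Benjamini-Hochberg adjusted p = 0.0023). The gene (ENSRNOG00000033663) lies on chromosome 10 as well, on the plus strand from 39435227 to 39464188.

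P4ha1, the alpha subunit of the main isoenzyme, had 454, 419 and 417 FPKM in Alox5KO medium, against 509, 535 and 458 FPKM in WT medium. The ranges came within 3.75 FPKM of each other, and the log2 fold change of -0.22 (95% interval -0.45 to 0.02) did not pass (limma, Benjamini-Hochberg adjusted p = 0.19). P4ha3, the least abundant of the alpha subunits, had 79.4, 80.5 and 102 FPKM in Alox5KO medium and 57.6, 57.9 and 75.7 FPKM in WT medium. All 3 Alox5KO-medium libraries were above all 3 WT-medium libraries, and replicate 3 was the highest in both groups. The log2 fold change of P4ha3 was 0.45 (95% interval 0.13 to 0.77) at an adjusted p just above the threshold (limma, Benjamini-Hochberg adjusted p = 0.054). With WT-medium replicate 3 left out it was 0.58 and passed (limma, Benjamini-Hochberg adjusted p = 0.015), and over all alternatives the adjusted p ran from 0.011 to 0.19. P4ha1 (ENSRNOG00000050655, chromosome 20, 28920616 to 28971966) and P4ha3 (ENSRNOG00000017118, chromosome 1, 165295847 to 165330322) lie on plus strands.

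The table annotates P4ha1, P4ha2 and P4ha3 with the same pair of protein domains, the alpha-subunit N-terminal region and the 2OG-Fe(II) oxygenase domain. Summed over the 3 genes, alpha-subunit transcripts reached 678, 667 and 688 FPKM in Alox5KO medium and 805, 844 and 794 FPKM in WT medium. P4ha2 made up 21.3%, 25.1% and 24.6% of that sum in Alox5KO medium, against 29.6%, 29.7% and 32.8% in WT medium. The share of P4ha3 was 11.7%, 12.1% and 14.8% in Alox5KO medium and 7.16%, 6.86% and 9.53% in WT medium. Neither share overlapped between the groups, with mean differences of -7.03 and 5.00 percentage points. Each had an exact two-sided permutation p of 0.10, the smallest that 3 against 3 samples allow, and 0.14 after Benjamini-Hochberg adjustment over the 21 sums, shares and ratios computed. P4ha1 held 63.5% ± 3.23 of the sum in Alox5KO medium and 61.5% ± 3.26 in WT medium (SD, n = 3 each), with overlapping values (exact permutation p = 0.60, 0.70 after adjustment). The level of P4hb per unit of summed alpha subunit, a ratio chosen after its values were seen, was 1.01, 0.950 and 1.01 in Alox5KO medium and 1.51, 1.38 and 1.29 in WT medium.

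**Figure D2:**
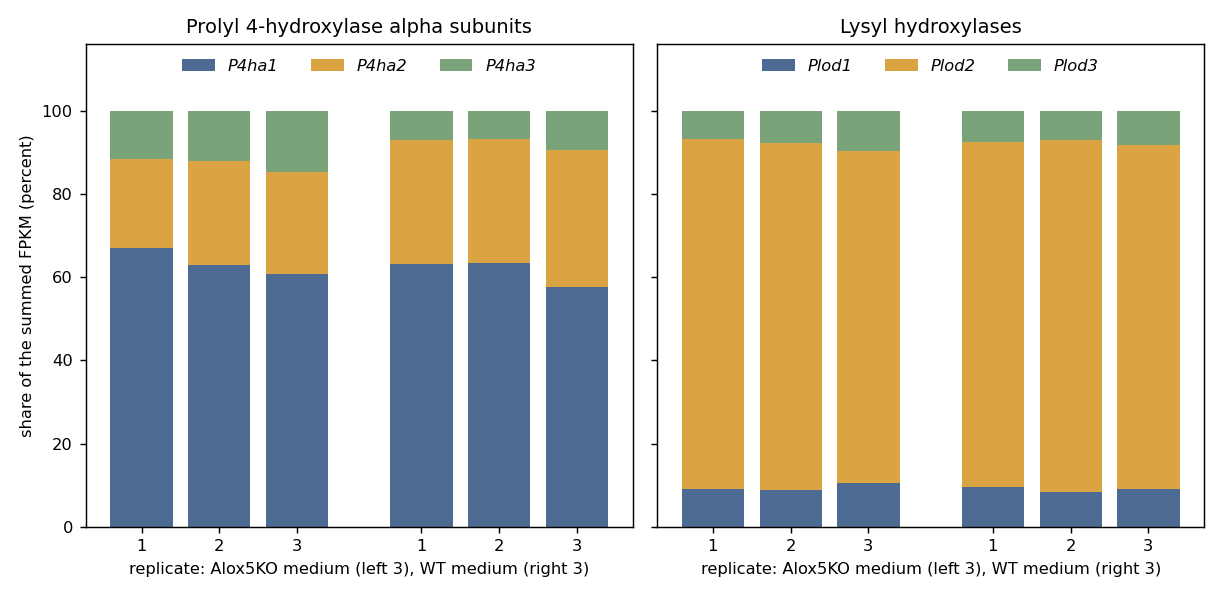
Shares (percent, vertical axis from 0) of the 3 alpha-subunit genes of prolyl 4-hydroxylase (left panel) and of the 3 lysyl hydroxylase genes (right panel) in their summed FPKM, 1 bar per library, Alox5KO medium left and WT medium right in each panel. The P4ha2 band is narrower and the P4ha3 band wider in every Alox5KO-medium library, while Plod2 holds between 79.5% and 84.6% of the lysyl hydroxylase sum in all 6 libraries.

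Plod2 hydroxylates lysines in the collagen telopeptides, which leads to the stable crosslinks of scar tissue. Its level was 666, 571 and 559 FPKM in Alox5KO medium, against 768, 833 and 775 FPKM in WT medium, with 102 FPKM between the nearest libraries of the groups. The log2 fold change was -0.41 (SE 0.11; limma, Benjamini-Hochberg adjusted p = 0.030). This call was the least stable of the 4. It was lost without Alox5KO-medium replicate 2 or 3 and without WT-medium replicate 1 or 2, where the Benjamini-Hochberg adjusted p of limma was 0.088, 0.11, 0.092 and 0.12. With quantile normalization the fold change was -0.21 (limma, Benjamini-Hochberg adjusted p = 0.16). Plod2 (ENSRNOG00000030183) lies on the plus strand of chromosome 8 from 99977334 to 100059736.

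Plod1, which hydroxylates lysines of the helical part of the chain, had 71.1, 61.1 and 74.8 FPKM in Alox5KO medium and 87.5, 82.9 and 84.1 FPKM in WT medium. The groups did not overlap, and the log2 fold change of -0.30 (95% interval -0.53 to -0.07) did not pass (limma, Benjamini-Hochberg adjusted p = 0.071). Plod3 encodes an enzyme that both hydroxylates lysine and adds sugars to it. It had 54.9, 52.8 and 69.1 FPKM in Alox5KO medium, against 68.7, 69.1 and 77.3 FPKM in WT medium, so that Alox5KO-medium replicate 3 reached the level of the lower WT-medium libraries. Its log2 fold change was -0.29 (95% interval -0.56 to -0.01; limma, Benjamini-Hochberg adjusted p = 0.13), and without that replicate it was -0.40 and passed (limma, Benjamini-Hochberg adjusted p = 0.038). Plod3 overlaps Znhit1 on the opposite strand, which had a mean of 12.8 FPKM, and the sources used here do not say whether reads were counted by strand. The share of each Plod gene in the lysyl hydroxylase sum overlapped between the groups. Plod2, for example, had 82.3% ± 2.45 in Alox5KO medium and 83.5% ± 0.963 in WT medium (SD, n = 3 each; exact permutation p = 0.70, and 0.70 after adjustment). The summed level was 792, 685 and 703 FPKM in Alox5KO medium, below the 925, 985 and 936 FPKM of WT medium. Plod1 (ENSRNOG00000007763) lies on chromosome 5 from 164720587 to 164747083 and Plod3 (ENSRNOG00000001417) on chromosome 12 from 22716423 to 22726982, both on the minus strand.

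Serpinh1, the collagen-specific chaperone, was the most abundant of the 10 and did not pass the test. It had 1563, 1723 and 1908 FPKM in Alox5KO medium and 1502, 1575 and 1314 FPKM in WT medium. Alox5KO-medium replicate 1 fell within the WT-medium range, while the other two exceeded it. The log2 fold change was 0.24 (95% interval -0.04 to 0.52; limma, Benjamini-Hochberg adjusted p = 0.22). With quantile normalization it was 0.31 and passed narrowly (limma, Benjamini-Hochberg adjusted p = 0.0496), with adjusted p up to 0.48 over the alternatives. Serpinh1 (ENSRNOG00000016831) lies on the minus strand of chromosome 1 from 164301010 to 164308317, 987.5 kilobases from P4ha3.

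Bmp1 had the largest fold change of the 10. This astacin-type metalloprotease cuts the C-propeptides of the fibrillar procollagens and also activates prolysyl oxidase. Its level was 32.0, 29.5 and 34.2 FPKM in Alox5KO medium, against 70.1, 65.1 and 65.6 FPKM in WT medium. The groups lay 31.0 FPKM apart, and the coefficient of variation was 7.32% in Alox5KO medium and 4.13% in WT medium. The log2 fold change was -1.05 (SE 0.09; limma, Benjamini-Hochberg adjusted p = 8.2e-05), and it ran from -1.10 to -0.995 over the alternatives. Of all genes tested, 7.27% had a log2 fold change of at least 1 in size. Bmp1 (ENSRNOG00000010890) lies on the minus strand of chromosome 15 from 52166401 to 52210746.

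Pcolce, which binds the C-propeptide and enhances its cleavage by Bmp1, had 409.7, 426 and 477 FPKM in Alox5KO medium, against 419.6, 391 and 395 FPKM in WT medium. The ranges overlapped, and the log2 fold change of 0.12 had a 95% interval of -0.11 to 0.35 (limma, Benjamini-Hochberg adjusted p = 0.47). The FPKM of Pcolce was thus 12.8, 14.4 and 14.0 times that of Bmp1 in the Alox5KO-medium libraries, and 5.98, 6.01 and 6.02 times in the WT-medium libraries. This ratio of transcripts was chosen after its values were seen, and protein levels are not part of these data. These ratios did not overlap (exact two-sided permutation p = 0.10, the smallest possible, and 0.14 after adjustment over the 21 quantities). As the ratio was picked on its values, this p only describes them. Pcolce (ENSRNOG00000025001) lies on the plus strand of chromosome 12 from 22153983 to 22160337.

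**Figure D3:**
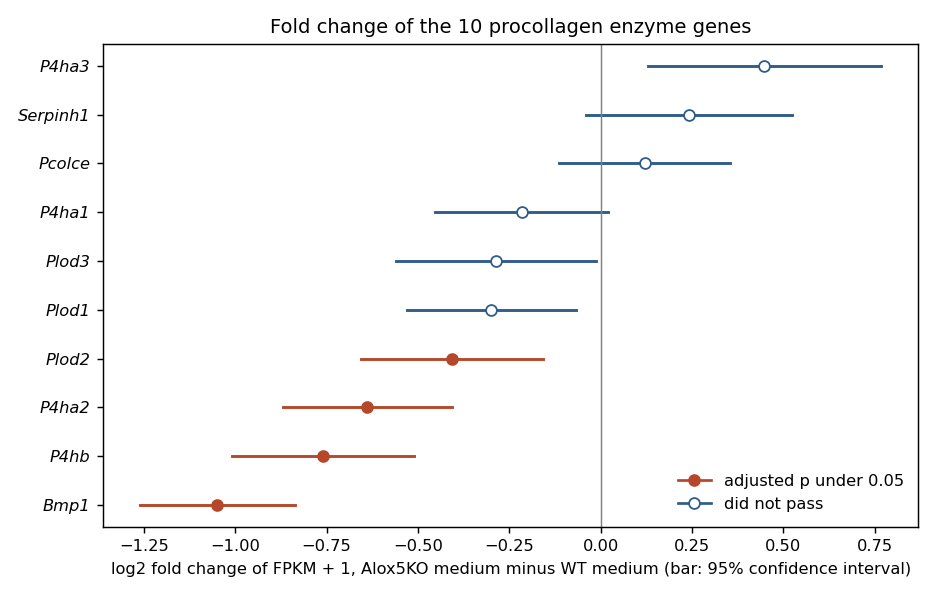
Log2 fold change of FPKM + 1 (Alox5KO medium minus WT medium, horizontal axis) of the 10 genes with 95% confidence intervals from limma, filled red where the adjusted p was under 0.05. Bmp1, P4hb, P4ha2 and Plod2 lie lowest, at -1.05, -0.76, -0.64 and -0.41, and P4ha3 lies highest, at 0.45.

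The enzymes were next set against the collagen chains on which they act. Col1a1 and Col1a2, the chains of type I collagen, had 3741 ± 483 and 896 ± 155 FPKM in Alox5KO medium and 3290 ± 577 and 717 ± 388 FPKM in WT medium (SD, n = 3 each). Their log2 fold changes of 0.19 and 0.47 did not pass (limma, Benjamini-Hochberg adjusted p = 0.46 and 0.54). Col3a1, type III collagen, had 2293 ± 186 FPKM in Alox5KO medium and 1285 ± 201 FPKM in WT medium (SD, n = 3 each), a log2 fold change of 0.84 that passed (limma, Benjamini-Hochberg adjusted p = 0.0028). Summed, the 3 chains reached 6147, 7257 and 7385 FPKM in Alox5KO medium, all above the 5007, 5117 and 5753 FPKM of WT medium. Relative to this sum, 8 of the 10 enzymes were lower in every Alox5KO-medium library than in any WT-medium library, the exceptions being P4ha3 and Serpinh1. Of all genes tested, 45.4% were lower and 6.09% higher without overlap by the same ratio, whose denominator was itself higher in Alox5KO medium. Relative to Col1a1 alone, 4 of the 10 were lower without overlap (P4ha2, P4hb, Plod3 and Bmp1), against 17.7% of all genes tested, and P4ha3 was higher without overlap, against 8.52%. The ratio of Pcolce, among the 8, differed by -0.27 with the sum and by -0.070 with Col1a1 alone, where its groups overlapped. The largest differences in log2 ratio to the sum were those of Bmp1 (-1.46), P4hb (-1.15) and P4ha2 (-1.03). Each had an exact two-sided permutation p of 0.10, the smallest possible, and 0.14 after adjustment. The log2 ratio of P4ha2 varied little within a group, at -5.41, -5.44 and -5.45 in Alox5KO medium and -4.39, -4.35 and -4.47 in WT medium. For P4ha3 and Serpinh1 the differences were 0.07 and -0.14, with overlapping values (exact permutation p = 0.70 and 0.40). A ratio within a library shows unequal change and not which side of it changed.

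**Figure D4:**
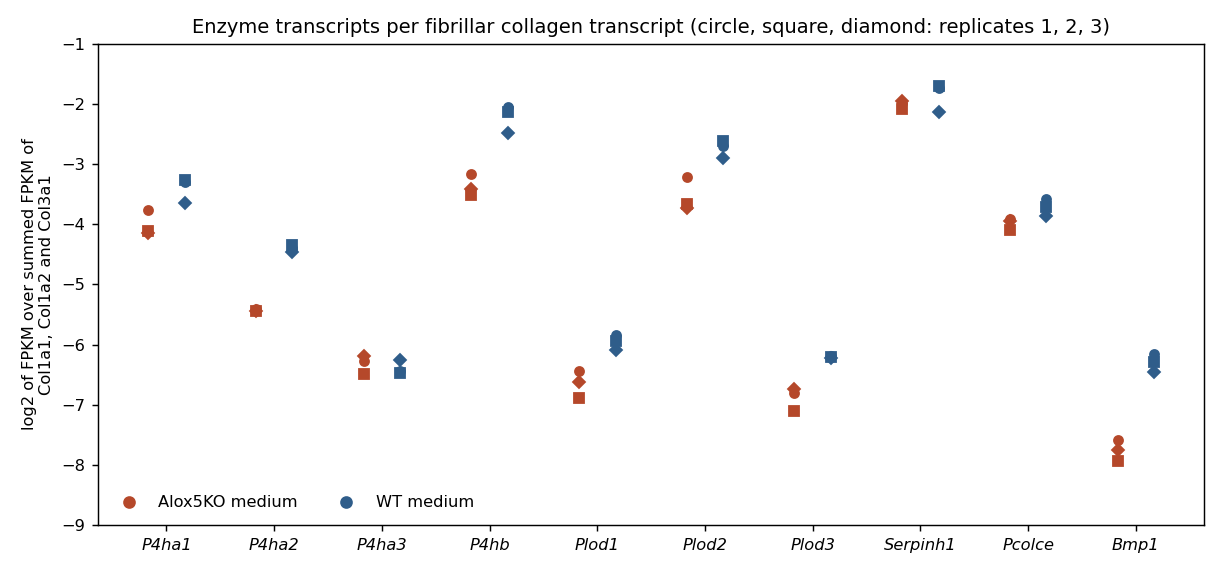
Log2 ratio of each transcript to the summed FPKM of Col1a1, Col1a2 and Col3a1 (vertical axis), 1 point per library, Alox5KO medium left (red) and WT medium right (blue) for each gene. All genes but P4ha3 and Serpinh1 are separated, as are 45.4% of all genes tested in that direction, and the groups lie farthest apart for Bmp1, at a mean difference of -1.46.

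Genes that work beside these enzymes were described as lists, by their counts and medians, against the 20.7% called and the median of -0.00082 over all genes tested. P4hb was set beside a list for protein folding in the endoplasmic reticulum, which holds chaperones and disulfide enzymes, but also stress-response transcription factors (Xbp1, Atf4 and Ddit3) and genes of degradation (Sel1l, Edem1 and Herpud1). Of its 24 genes tested, 17 were lower in Alox5KO medium (12 to 17 over the alternatives) and 0 higher, with a median log2 fold change of -0.49. Xbp1 and Sel1l were among the lower genes and were named after their values were seen. The call of Sel1l was lost with limma voom and with any 1 sample left out. That of Xbp1 was lost without WT-medium replicate 1 or 2. In that list 19 were lower at an unadjusted p under 0.05, and limma voom called 0 higher. Sdf2l1, a cofactor of the chaperone BiP, had 19.8 ± 3.07 FPKM in Alox5KO medium and 52.9 ± 3.04 FPKM in WT medium (SD, n = 3 each; log2 fold change -1.38; limma, Benjamini-Hochberg adjusted p = 6.6e-05). The chaperone Hsp90b1 (GRP94) had a log2 fold change of -1.21, the disulfide isomerase Pdia4 one of -1.002 and the lectin chaperone Calr one of -0.85.

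In a list of collagen modification partners, 33.3% of the tested genes were called in either direction, against 20.7% of all genes tested. Of 15 tested members of that list 3 were higher and 2 lower, with a median log2 fold change of -0.04. The prolyl 3-hydroxylase P3h2 had 5.02 ± 0.787 FPKM in Alox5KO medium and 1.87 ± 0.352 FPKM in WT medium (SD, n = 3 each; log2 fold change 1.07; limma, Benjamini-Hochberg adjusted p = 0.0014). P4htm and Tmem38b, a potassium channel of the reticulum, were higher at log2 fold changes of 1.08 and 0.68. P4htm, a transmembrane prolyl hydroxylase, counts in this list but is not a subunit of the prolyl 4-hydroxylase described above. Rcn3, a calcium-binding protein of the reticulum, and the peptidyl-prolyl isomerase Ppib were lower at -0.43 and -0.36. Ppib was named after its values were seen, and its call was lost in 10 of 16 alternatives. The call of Rcn3 was lost without Alox5KO-medium replicate 1 or 2 and without WT-medium replicate 1 or 2, and the number of lower genes in that list was 0 in those 4 fits. Of the 21 genes of procollagen export, which carry the long molecules to the Golgi, 2 were lower and 0 higher (1 by limma voom), with a median log2 fold change of 0.02. At an unadjusted p under 0.05, 2 of them were higher. Creb3l1, a transcription factor that drives the collagen secretory machinery, had 94.99 ± 7.83 FPKM in Alox5KO medium and 141 ± 13.4 FPKM in WT medium (SD, n = 3 each; log2 fold change -0.57; limma, Benjamini-Hochberg adjusted p = 0.0055). Bet1, a SNARE of transport between reticulum and Golgi, was lower at -0.49, a call lost in 6 of 16 alternatives. Tfg and Creb3l2 had log2 fold changes of 0.35 and 0.34 that did not pass, although Tfg passed in 5 of 16 alternatives and Creb3l2 without WT-medium replicate 3.

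P4ha1, P4ha2 and Plod2 are known targets of hypoxia-inducible factor and belong to the list of hypoxia-induced genes. Of the other 23 tested genes of that list, 18 were lower in Alox5KO medium and 0 higher, with a median log2 fold change of -0.63. With the 3 enzymes included, 20 of 26 were lower (14 to 20 over the alternatives), 21 at an unadjusted p under 0.05, and limma voom called 0 higher. Egln3, an oxygen-sensing prolyl hydroxylase induced by the factor, had 7.34 ± 1.61 FPKM in Alox5KO medium and 35.9 ± 3.64 FPKM in WT medium (SD, n = 3 each; log2 fold change -2.16; limma, Benjamini-Hochberg adjusted p = 1.7e-05). Ndrg1 had a log2 fold change of -2.15, the mitophagy receptor Bnip3 one of -1.18 and the glucose transporter Slc2a1 one of -1.13. The sources used here do not state the oxygen level of the cultures.

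Other enzymes of the 2-oxoglutarate-dependent family did not move in a single direction. Of 15 tested, 4 were lower and 2 higher, with a median log2 fold change of -0.11, which was -0.0022 without Alox5KO-medium replicate 1 and -0.19 without replicate 3 of that group. Besides Egln3, Asph, an aspartyl hydroxylase, was lower at -0.68. Egln1, an oxygen sensor, and Phyhd1 were lower at -0.64 and -0.50 and were named after their values were seen. The 2 higher genes were P3h2 and P4htm, which also count among the collagen modification partners. Among 12 genes for ascorbate uptake, iron handling and 2-oxoglutarate supply, 3 were lower and 2 higher, with a median of -0.21, or -0.13 without WT-medium replicate 2. The iron transporter Slc11a2 had 18.8 ± 0.742 FPKM in Alox5KO medium and 40.3 ± 1.79 FPKM in WT medium (SD, n = 3 each; log2 fold change -1.06; limma, Benjamini-Hochberg adjusted p = 5.5e-05). Slc23a2, the ascorbate transporter, named after its values were seen, had 4.83 FPKM in Alox5KO medium and 6.66 FPKM in WT medium on average (log2 fold change -0.39; limma, Benjamini-Hochberg adjusted p = 0.045), and this call was lost in 9 of 16 alternatives. Slc2a1 was the third lower gene of this list. Idh1, which makes 2-oxoglutarate in the cytosol, was higher at 0.65. The ferritin light chain Ftl1 was higher at 0.41, a call lost in 6 of 16 alternatives. The ferritin heavy chain Fth1 was listed at 0 in all 6 libraries, and a value of 0 in this table is therefore no evidence of absence.

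Around Bmp1 and Pcolce, the list for propeptide removal divided. It also holds genes of matrix proteins, such as Thbs1, Fn1 and Postn. Of 10 tested, 3 were higher and 3 lower, with a median log2 fold change of -0.26, which was -0.41 without WT-medium replicate 2 and -0.11 without WT-medium replicate 3. The N-propeptidase Adamts3 had 1.10 ± 0.224 FPKM in Alox5KO medium and 6.52 ± 1.98 FPKM in WT medium (SD, n = 3 each; log2 fold change -1.82; limma, Benjamini-Hochberg adjusted p = 2.5e-04), and PCOLCE2, the second enhancer gene, was lower at -0.65. Fibronectin, Fn1, which binds Bmp1, was lower at -1.095, and the thrombospondin Thbs1 was higher at 1.70. Adamts2, the main N-propeptidase of type I procollagen, and Tll1, a protease of the Bmp1 family, were higher at 0.98 and 0.78. Both were named after their values were seen, and the call of Tll1 was lost in 5 of 16 alternatives. Their levels were 34.2 and 4.62 FPKM in Alox5KO medium, against 17.0 and 2.33 FPKM in WT medium, so that Tll1 stayed below Bmp1 in both groups. Of 13 tested genes whose products Bmp1 is known to cut besides the fibrillar procollagens, 5 were lower and 2 higher, with a median of 0.03. The crosslinking enzyme Lox had a log2 fold change of -1.56, Igfbp3 one of -1.88, the anchoring fibril collagen Col7a1 one of -1.45 and the proteoglycan Dcn one of -4.10. Col7a1 was low, at a mean of 0.721 FPKM in Alox5KO medium and 3.70 FPKM in WT medium. Its log2 fold change ran from -2.335 to -1.353 over the alternatives. Tgfbr3 was the fifth lower gene, at -1.04, and the higher ones were Ogn and Gdf11, at 2.75 and 0.45. These 3 were named after their values were seen, and the call of Gdf11 was lost in 6 of 16 alternatives and that of Ogn in 1.

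Of 18 collagen chain genes tested, 3 were higher and 4 lower, with a median log2 fold change of 0.23. The median was 0.34 without Alox5KO-medium replicate 1, 0.11 without replicate 2 and 0.12 without replicate 3 of that group. Besides Col3a1, the chains Col14a1 and Col12a1, which decorate fibrils, were higher at 1.04 and 1.08. Besides Col7a1, the chains Col6a1, Col6a2 and Col18a1 were lower at -0.66, -0.75 and -0.75 and were named after their values were seen. The number of higher chains was 6 without WT-medium replicate 3 and 5 without Alox5KO-medium replicate 1. The lists and the 10 enzymes were chosen with results of these data known, so their counts are a description. Some lists share genes, such as Ero1a in those of folding and hypoxia, and a shared gene counts in each.

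**Figure D5:**
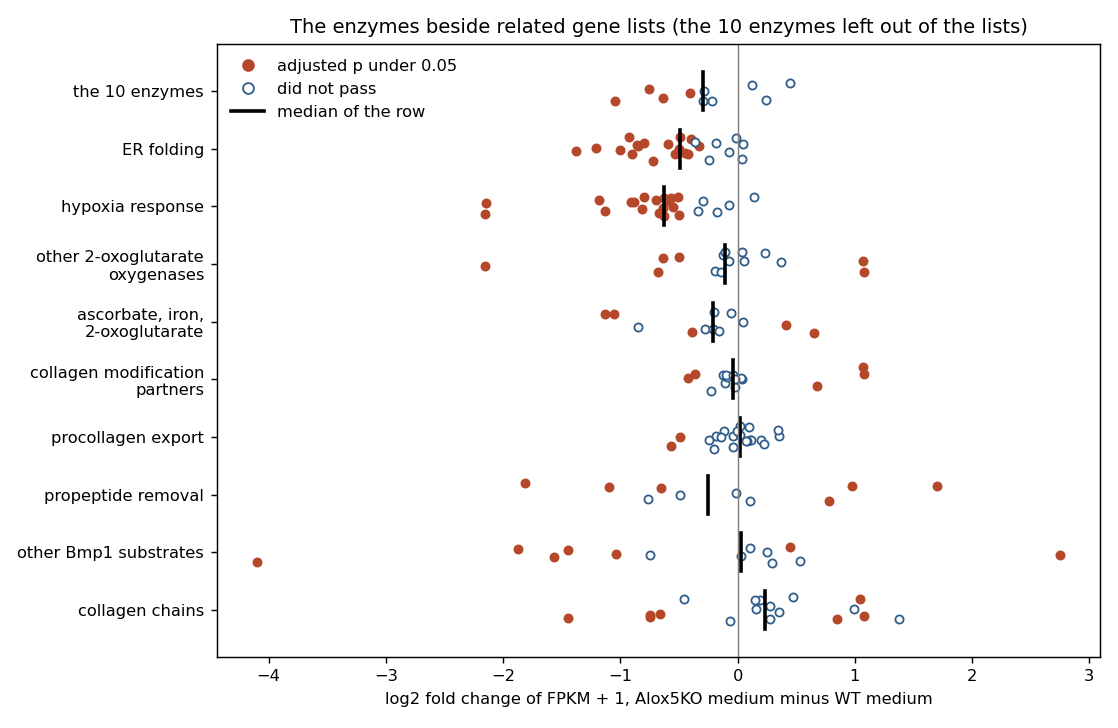
Log2 fold change of FPKM + 1 (Alox5KO medium minus WT medium, horizontal axis) of the 10 enzymes and of the tested genes of 9 related lists. Each row has 1 point per gene, filled red where the adjusted p was under 0.05, with a black line at the median. A gene held by several lists has a point in each of their rows. The rows of endoplasmic reticulum folding (median -0.49) and of the hypoxia response (median -0.63 without the 3 enzymes) lie mostly left of 0. Their genes right of 0 are Ddit3 and Txndc5 in the first and Pfkfb3 in the second. The other rows spread to both sides.

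The libraries held 13284088 to 15766187 reads. Over the tested genes, principal component 1, with 65.0% of the variance, separated the groups, and WT-medium replicate 3 stood apart on component 2, with 11.7%. Without that library the test again called 4 of the enzymes lower, and 1, P4ha3, higher. The 14 fibroblast markers summed to 11800 to 13360 FPKM in the Alox5KO-medium libraries and 11650 to 12170 FPKM in the WT-medium libraries. Of these 3 were higher and 4 lower, with a median log2 fold change of 0.08, and the median level within a library was 84.2 to 129 FPKM in Alox5KO medium and 218 to 499 FPKM in WT medium. The 13 cardiomyocyte markers in the table summed to 100.3 to 123.7 FPKM in Alox5KO medium and 32.1 to 56.9 FPKM in WT medium, with medians of 1.32 to 2.06 FPKM in Alox5KO medium and 0.562 to 0.740 FPKM in WT medium. Of 8 tested, 4 were higher and 0 lower, with 7 higher and 0 lower at an unadjusted p under 0.05 and 6 higher by limma voom, and Myl2 was listed at 0. The markers of the labelled cell type were thus detected at far lower summed levels than those of fibroblasts. In the smooth muscle and pericyte list 8 of 10 tested genes were higher and 1 lower, and its summed level was 5006 to 6859 FPKM in Alox5KO medium and 1104 to 1201 FPKM in WT medium. The summed mast cell markers were 17.0 to 25.1 FPKM in Alox5KO medium and 38.1 to 53.6 FPKM in WT medium, mostly Cpa3, while Mcpt4, Tpsb2, Fcer1a, Ms4a2 and Hpgds were listed at 0 in all libraries. Endothelial markers summed to 12.2 to 13.3 FPKM in Alox5KO medium and 13.2 to 15.8 FPKM in WT medium, and leukocyte markers to 23.5 to 38.3 FPKM in Alox5KO medium and 31.8 to 36.1 FPKM in WT medium. Schwann cell markers summed to 5.65 to 7.71 FPKM in Alox5KO medium and 4.94 to 7.90 FPKM in WT medium, and red cell markers were at or near 0. In bulk samples fewer cells of a type and less RNA per cell cannot be told apart, and the part of these markers in the results on the 10 enzymes was not tested. No measurement of leukotrienes in the media was analysed here.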

How the data were processed

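TRIzol was used for extraction and a NEBNext Ultra kit for library preparation, per the labels' protocols. Per the submitters' processing notes, which give no roles, the tools include HISAT2 2.0.5 and featureCounts 1.5.0-p3, and the build is mm10. The labels give mouse as the organism, but 32883 of 33682 rows carry rat Ensembl identifiers, 0 mouse ones and 799 others. The authors deposited FPKM values, 1 column per sample, with gene lengths in another column, per the file headers. Samples were grouped by title. FPKM times length was a whole multiple of a step per column for 100% of values above 0 (tolerance 0.05 reads), which gave the reads. For a 1-kilobase gene, 3 reads, the limit that a count of 0 allows, correspond to 0.185 to 0.228 FPKM, counting error only.

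Genes averaging 1 FPKM or more were tested as log2(FPKM + 1), a scale that understates changes of low genes, with limma 3.58.1 (R 4.3.3), with trend and robust prior, two-sided, Benjamini-Hochberg adjusted at 0.05 over all genes. The code was tested on simulated data. Shares and ratios were compared with exact permutation tests (scipy 1.17.1). Members and lists were chosen with earlier results of these data known. Genes named by rule are the 10 members, the 4 tested genes with the smallest p in each of 9 lists, and Col1a1, Col1a2 and Col3a1. Other genes given a fold change were named after their values were seen, as stated beside them. Symbols were matched without regard to case. The closest replicates, WT-medium 1 and 2, differed at 6.95 chi-square units per degree of freedom, so none was merged. Alternatives were other pseudocounts, filters and scalings, another prior, limma voom on the reads, a replicate block, and each sample left out. No rat sequence was used here.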

Additional observations from a re-analysis of the deposited data

How the results depend on the processing

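In 16 alternative fits each of the 10 enzymes kept the sign of its fold change. Bmp1, P4hb and P4ha2 passed in all 16 and Plod2 in 11, and the number of enzymes called lower was 3 or 4. The number called higher was 1 in place of 0 with a filter at a mean of 5 FPKM, with limma voom, with the replicate block and without WT-medium replicate 3 (each P4ha3), and with quantile normalization (Serpinh1), so that with 1 sample left out it ran from 0 to 1; the cause was not tested. With 1 sample left out, 791 to 1226 genes were called higher and 862 to 1325 lower, fewest without WT-medium replicate 1, a fit with fewer samples.

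The replicate numbers share no stated origin. Deviations from the group means correlated at -0.0963, 0.105 and 0.167 between same-numbered samples, and at -0.192 to 0.101 between other-numbered ones. As no shared origin is stated, the numbers were not taken as pairs, and the replicate block was run as an alternative. With the replicate block the number of genes called higher was 1277 and of genes called lower 1375, and 4 enzymes lower and 1 higher.

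The shares of the Plod genes, which did not differ beyond their spread, changed sign without Alox5KO-medium replicate 3: with 1 sample left out the difference ran from -0.00648 to 0.848 percentage points for Plod1, from -2.03 to 0.254 for Plod2 and from -0.247 to 1.203 for Plod3, and the cause was not tested. The log2 ratio of Serpinh1 to collagen differed by 0.051 in place of -0.14 with Col1a1 alone as the collagen. That choice shifts every enzyme's ratio by the same amount: Pcolce had -0.070 in place of -0.27, P4ha1 -0.41 in place of -0.60 and P4ha3 0.26 in place of 0.07, and the number lower without overlap was 4 in place of 8. The least covered enzyme, P4ha3, had 1264 reads in its shallowest library.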
